A study of Arabidopsis thaliana with 18 samples.

Results

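Among 9 leaf arrays labelled as plants that over-express StZFP2, 6 fell into 2 sets of 3 that cut across their treatment labels, and these 6 of the 18 arrays in the series are described here. The set called 1 h-like holds the arrays labelled OE 1h wound C, OE 6h wound A and OE 6h wound B. The set called control-like holds the arrays labelled OE Control C, OE 1h wound A and OE 1h wound B. The sets were selected on correlations between the arrays, so each difference between them is a description with no test. Its agreement with the Col-0 wound change is in part built in by the choice. That the sets stand for other treatments than their labels give is a hypothesis that was not tested, and every array keeps its label here.

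The arrays were Affymetrix ATH1, 1 leaf sample of Arabidopsis thaliana each. OE samples pool OEEV47-1 with OEEV47-2 according to the sample labels, although the series design lists these lines one by one, and both carry StZFP2, which encodes a zinc finger protein of potato. For OE, and for the wild type Col-0, the labels give 3 unwounded controls, 3 arrays at 1 h and 3 at 6 h after wounding, lettered A, B and C. The question of the series is how the transgene alters the wound response. The promoter of the transgene is not given in the sources used here, and no level of StZFP2 was checked. Nothing in the labels tells whether replicates are different plants. The p-values hence rest on the scatter among these arrays, which could be of technical origin. In whole leaves, fewer cells of a type and less RNA per cell cannot be told apart.

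A wounded leaf makes jasmonates within minutes from plastid lipids by lipoxygenases, allene oxide synthase and cyclase, and OPR3. The amino acid conjugate made by JAR1 removes the JAZ repressors and so frees MYC factors, whose targets include the JAZ genes themselves and the enzymes that break the hormone down. A separate early wave, shared with touch, cold and pathogen signals, includes calcium sensors and WRKY, ERF and C2H2 zinc finger factors.

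The label check comes first. Over the 14823 probe sets kept by the filter on low signals, arrays of the 1 h-like set correlated with each other at 0.973 to 0.978 and those of the control-like set at 0.970 to 0.974, while correlations between the sets were 0.922 to 0.944. Within the labelled groups, the correlations were 0.922 to 0.983 for OE control, 0.934 to 0.970 for OE 1 h and 0.890 to 0.975 for OE 6 h. The 1 h-like arrays correlated with Col-0 1 h arrays at 0.953 to 0.971 and with Col-0 controls at 0.939 to 0.966, ranges that overlap. The array labelled OE 6h wound A reached 0.962 with both a Col-0 1 h array and a Col-0 control. The control-like arrays correlated with Col-0 controls at 0.930 to 0.948, with Col-0 1 h arrays at 0.888 to 0.910 and with Col-0 6 h arrays at 0.920 to 0.940, and the ranges with controls and 6 h overlap. The arrays labelled OE Control A, OE Control B and OE 6h wound C belong to neither set, and correlated at 0.975 to 0.983 with each other, at 0.881 to 0.892 with the 1 h-like and at 0.914 to 0.926 with the control-like arrays. These are correlations across probe sets of log2 signal, and probe sets are not independent replicates.

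Control probe sets are not among the 14823 kept probe sets. Whether they entered the correlations on which the sets were chosen is not given in the sources used here. The ratio of the 3′ to the 5′ ubiquitin signal was 2.52, 2.39 and 2.18 on the 1 h-like arrays and 3.47, 3.03 and 3.04 on the control-like arrays, so the sets did not overlap. The same ratio was 2.22 to 2.39 in Col-0 1 h and 2.25 to 3.15 in Col-0 control. A second ubiquitin pair gave 1.32 to 1.37 on the 1 h-like and 1.5 to 1.67 on the control-like arrays. A second actin pair gave 6.04 to 6.74 on the 1 h-like and 4.60 to 5.29 on the control-like arrays. The first actin pair gave 20.4 to 23.31 on the 1 h-like and 17.98 to 22.55 on the control-like arrays. The GAPDH pairs gave 3.38 to 4.32 and 1.18 to 1.42 on the 1 h-like arrays, and 2.97 to 3.51 and 1.27 to 1.47 on the control-like arrays. Thus 3 of these 6 ratios separated the sets and the others overlapped, and their part in the differences was not tested. The array labelled OE Control C had the lowest spike-in signals of the 18, with 312.3 for bioB, 16702.1 for cre and 813.0 for dap. Median signals were 138.8 to 147.9 on the 1 h-like and 144.5 to 155.2 on the control-like arrays.

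By its labels, OE gave no call. The OE 1 h arrays against the OE controls had 0 of 14823 probe sets (0.0%) at an adjusted p below 0.05 in limma fitted to the 9 OE arrays, with 1055 at an unadjusted p below 0.05. A limma fit of all 18 arrays also gave 0, with 2331 at an unadjusted p below 0.05. With 1 OE control or 1 h array left out the adjusted count was again 0, and the unadjusted count ran from 266, without OE Control A, to 3136, without OE Control C. In Col-0 the same contrast, fitted to the 9 Col-0 arrays, called 866 probe sets (5.84%). Of these, 540 rose (3.64%) and 326 fell (2.2%), 62.4% higher among the calls. That share was 70.9% after quantile normalization and 83.5% with array medians subtracted, and the fit of all 18 arrays called 4. Without Col-0 1 h array B the count was 376, and without array C it was 496. The 9 Col-0 arrays were fitted alone because the scatter of the OE arrays under their labels would enter the error.

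The called Col-0 genes separated the 6 arrays. On the mean log2 level of the 540 risen probe sets, taken relative to unwounded Col-0, the arrays labelled OE 1h wound C, 6h wound A and 6h wound B stood at 0.53, 0.59 and 0.80. The arrays labelled OE Control C, 1h wound A and 1h wound B stood at -0.73, -1.0 and -0.47. Col-0 controls stood at -0.16, 0.05 and 0.10, Col-0 1 h arrays at 1.09, 1.27 and 1.08 and Col-0 6 h arrays at -0.59, -0.70 and -0.66. The OE arrays in neither set stood at -0.73, -0.52 and -0.37. The 1 h-like arrays thus lay between Col-0 1 h and Col-0 control, while the control-like arrays lay under every Col-0 control and in the range of Col-0 6 h and of the other OE arrays, or below it for OE 1h wound A. For the 326 fallen probe sets the 1 h-like arrays stood at -0.35, -0.30 and -0.36 and the control-like arrays at 0.37, 0.28 and 0.40, with Col-0 control at -0.07 to 0.08, Col-0 1 h at -0.79 to -0.90, Col-0 6 h at 0.28 to 0.31 and the other OE arrays at 0.34 to 0.38.

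**Figure D1:**
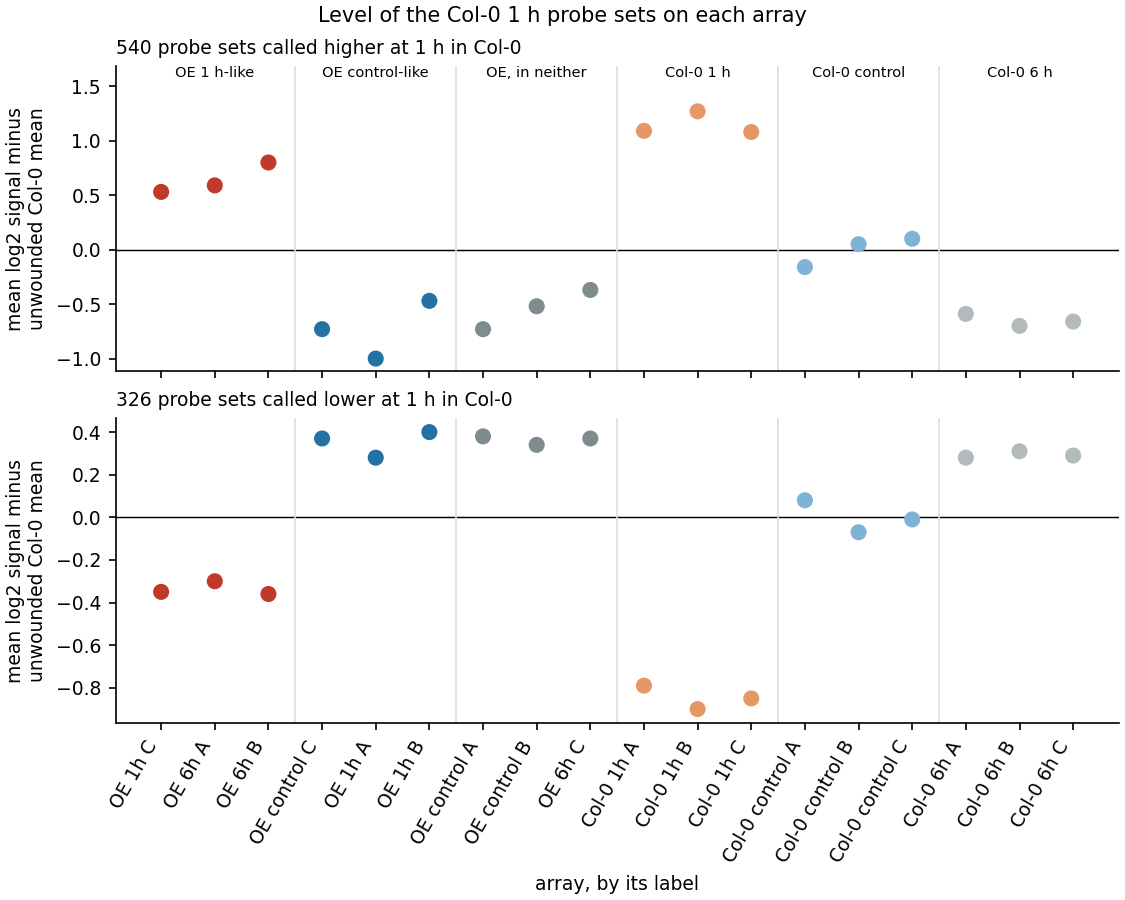
Mean log2 signal of the 540 probe sets called higher (top) and the 326 called lower (bottom) at 1 h in Col-0, minus the mean of the unwounded Col-0 arrays, with 1 point for each of the 18 arrays. The 3 OE arrays of the 1 h-like set lie between 0.53 and 0.80 in the top panel and the 3 of the control-like set between -1.0 and -0.47.

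Across all 14823 probe sets, the 1 h-like arrays were at least 2-fold higher with no overlap for 727 (4.9%) and at least 2-fold lower for 322 (2.17%). With no bound on size, 2106 (14.2%) were higher and 3921 (26.5%) lower without overlap, 34.9% higher of these. Subtraction of array medians gave 49.5% and quantile normalization 40.2%. Of the 540 probe sets that rose in Col-0, 530 (98.1%) were higher in the 1 h-like arrays and 435 (80.6%) did not overlap, against 37.4% higher over all kept probe sets. Of the 326 that fell, 309 (94.8%) were lower and 256 (78.5%) did not overlap, against 62.6% lower over all. The median difference of the risen probe sets was 1.26 between the OE sets and 1.05 in Col-0, with 332 of 540 larger between the OE sets. The median of the fallen ones was -0.66 between the OE sets and -0.79 in Col-0, and over all kept probe sets the medians were -0.11 and -0.09. By its labels, the OE 1 h change had a median of 0.37 for the risen and -0.19 for the fallen probe sets.

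Seen from the OE side, 324 of the 727 higher probe sets were called higher in Col-0, which is 44.6% of the OE list and 60% of the Col-0 list. Of the 322 lower ones, 73 were called lower in Col-0, 22.7% of the OE list and 22.4% of the Col-0 list. A Col-0 change above 0 was found for 687 of the 727 (94.5%) and one under 0 for 294 of the 322 (91.3%). The difference between the OE sets correlated with the Col-0 change at 0.64 across 14823 probe sets and at 0.86 across the 866 called, where the labelled OE 1 h change gave 0.22 and 0.45.

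**Figure D2:**
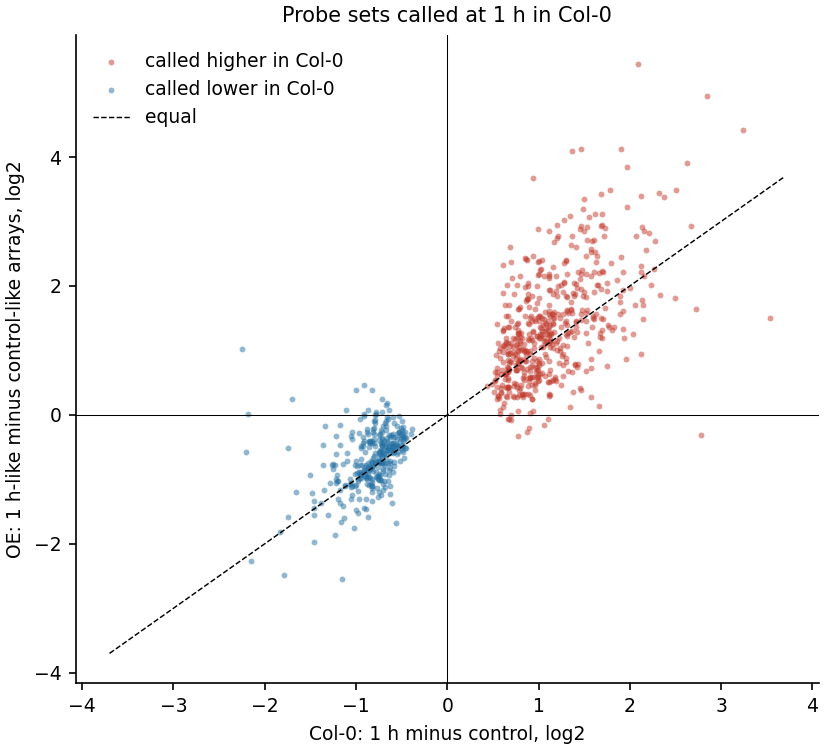
Each point is 1 of the 866 probe sets called at 1 h in Col-0, with the log2 change in Col-0 on the x axis and the log2 difference between the OE 1 h-like and control-like arrays on the y axis; the dashed line marks equal values. Most points lie in the same quadrant in both comparisons, 530 of 540 for the risen and 309 of 326 for the fallen probe sets.

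In the signals that follow, values of the 1 h-like set run in the order 1h wound C, 6h wound A, 6h wound B, and those of the control-like set in the order Control C, 1h wound A, 1h wound B. All 14 members of the jasmonate lists that rose in Col-0 were higher without overlap in the 1 h-like arrays, while of the other lists' 43 risen members 24 were. Of all 540 probe sets that rose in Col-0, 80.6% were. The sets were chosen on arrays that include these genes, so the counts support nothing about jasmonate in particular. The list counts that follow are to be read beside the shares of all kept probe sets. In Col-0, 3.64% of these rose and 2.2% fell. Between the OE sets, 14.2% were higher and 26.5% lower without overlap.

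Of 15 kept genes for jasmonate synthesis, 5 rose in Col-0 and none fell, and 10 were higher and 2 lower without overlap between the OE sets. The list median was 1.17 between the OE sets and 0.47 in Col-0. AOC3 (AT3G25780), an allene oxide cyclase, had signals of 5690, 4654 and 6351 on the 1 h-like arrays and 545, 419 and 693 on the control-like arrays. The lowest 1 h-like array was well above the highest control-like one, a difference of 3.35 on the log2 scale. In Col-0, AOC3 averaged 7378 ± 374 at 1 h and 2736 ± 1036 in controls (SD, n = 3 each), which is 1.5 ± 0.24 higher on the log2 scale (SE, limma adjusted p = 0.00392). LOX4 (AT1G72520), a lipoxygenase of jasmonate synthesis, had 8323, 7870 and 6737 on the 1 h-like arrays and 1044, 1246 and 1408 on the control-like arrays, a difference of 2.64. Its Col-0 change was 1.36 ± 0.22 (adjusted p = 0.0034). OPCL1 (AT1G20510), which activates the OPDA-derived precursor for beta-oxidation, differed by 1.32 between the OE sets and rose by 1.1 ± 0.26 in Col-0 (adjusted p = 0.0273). LOX3 (AT1G17420), a lipoxygenase like LOX4, had 11777, 12522 and 8885 on the 1 h-like arrays and 1518, 1669 and 1260 on the control-like arrays. That difference was 2.89, beside a Col-0 change of 0.99 ± 0.21 (adjusted p = 0.0163). JAR1 was 12984, 13500 and 12886 on the 1 h-like and 2458, 2551 and 2324 on the control-like arrays, and its Col-0 change was 0.85 ± 0.21 (adjusted p = 0.0348). AOC4 and ACX5, of the same pathway, were the lower ones, by -0.40 and -0.32. LOX2, a chloroplast lipoxygenase, overlapped, with 20078 to 25994 on the 1 h-like and 23309 to 27609 on the control-like arrays.

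Of the JAZ repressors, all 10 kept of 11 on the array were higher without overlap in the 1 h-like arrays, by a median of 1.82, while 3 rose in Col-0 and the Col-0 median was 0.71. JAZ8 (AT1G30135) had 1137, 1060 and 1161 on the 1 h-like arrays and 241, 176 and 321 on the control-like arrays. All 3 control-like values lay under the Col-0 control mean of 596 ± 107, and all 1 h-like values under the Col-0 1 h mean of 1904 ± 128 (SD, n = 3 each). Its difference was 2.23 between the OE sets and 1.69 ± 0.21 in Col-0 (limma adjusted p = 0.000717). JAZ7 (AT2G34600) had 2498, 1976 and 2043 on the 1 h-like and 247, 333 and 407 on the control-like arrays, a difference of 2.75, beside 1.2 ± 0.22 in Col-0 (adjusted p = 0.00747). JAZ1 (AT1G19180) differed by 1.85 between the OE sets and by 0.93 ± 0.22 in Col-0 (adjusted p = 0.0308). The smallest of the 10 differences was 0.59, for TIFY7.

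Genes for breakdown and conjugation of the hormone were next. Of 9 kept members, 5 rose in Col-0 and 8 were higher without overlap in the 1 h-like arrays, with medians of 1.77 between the OE sets and 0.86 in Col-0. CYP94C1 (AT2G27690), a cytochrome P450 that oxidises jasmonoyl-isoleucine, had 2950, 3294 and 3006 on the 1 h-like arrays and 176, 233 and 134 on the control-like arrays. The sets were 17.5-fold apart, where Col-0 averaged 4632 ± 214 at 1 h and 1722 ± 465 in controls (SD, n = 3 each), 2.75-fold (limma adjusted p = 0.000981). On the OE arrays in neither set its signals were 238, 270 and 273, so unlike the 1 h-like arrays they lay close to the control-like range. CYP94B1 (AT5G63450), another enzyme of that family, had 3955, 3065 and 2022 on the 1 h-like arrays and 201, 148 and 168 on the control-like arrays, 17-fold apart. Its Col-0 change was 1.37 ± 0.25 (adjusted p = 0.00683). CYP94B3 (AT3G48520), which hydroxylates the same conjugate, differed by 2.78 between the OE sets and by 1.21 ± 0.31 in Col-0 (adjusted p = 0.0385). AT5G05600 had 10751, 12320 and 10015 on the 1 h-like and 3698, 3385 and 2695 on the control-like arrays, and changed by 0.86 ± 0.17 in Col-0 (adjusted p = 0.0128).

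Downstream genes were less uniform. Of 7 jasmonate transcription factors, 1 rose in Col-0, AT1G01260, with 700, 619 and 577 on the 1 h-like and 359, 379 and 344 on the control-like arrays. MYC2, the central activator, differed by 0.77 without overlap and had a Col-0 change of 0.46 ± 0.19 (limma adjusted p = 0.201). Among 9 jasmonate-responsive defence genes none was called in Col-0, and the OE and Col-0 medians were both -0.01. TAT3 was 8221, 6849 and 10149 on the 1 h-like and 3892, 2132 and 3428 on the control-like arrays, beside 0.04 ± 0.28 in Col-0. VSP1, a vegetative storage protein gene whose probe set is shared between genes, was lower on the 1 h-like arrays, at 7341, 7719 and 5460, than on the control-like arrays, at 10382, 15730 and 9182.

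**Figure D3:**
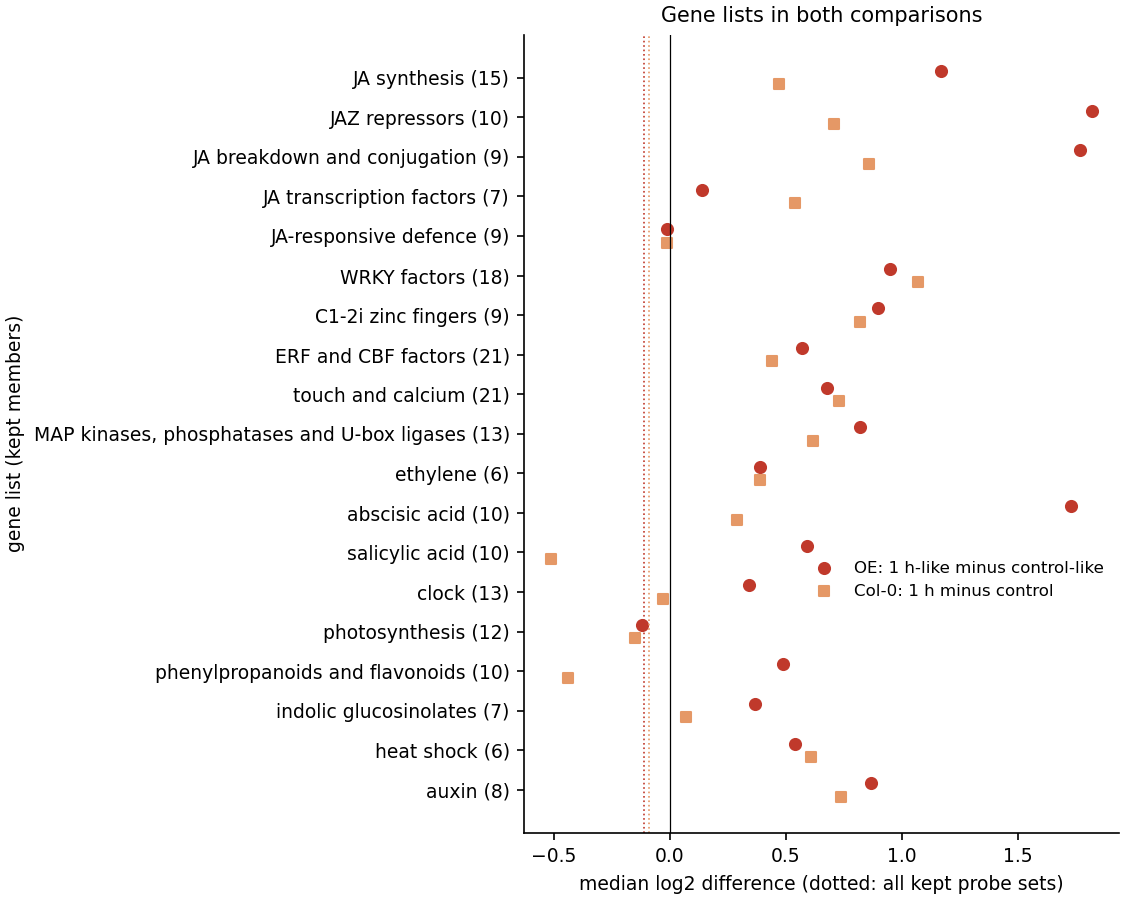
Median log2 difference over the kept members of each gene list, with circles for the OE 1 h-like minus control-like arrays, squares for Col-0 1 h minus control, and dotted lines for the medians of all kept probe sets. The JAZ (1.82), jasmonate breakdown (1.77) and abscisic acid (1.73) lists have the highest OE medians, and the salicylic acid list has 0.59 for OE and -0.51 for Col-0.

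Among 18 WRKY factors, regulators of defence and stress genes, 12 rose and 1 fell in Col-0, and 7 were higher without overlap between the OE sets. WRKY18 (AT4G31800) had 2621, 3172 and 3762 on the 1 h-like arrays and 467, 331 and 638 on the control-like arrays, a difference of 2.77. In Col-0 it averaged 6316 ± 1041 at 1 h and 1501 ± 210 in controls (SD, n = 3 each; log2 change 2.07 ± 0.16, limma adjusted p = 5.6e-05). WRKY28 (AT4G18170) had 280, 305 and 550 on the 1 h-like and 121, 93.6 and 64.0 on the control-like arrays, beside a Col-0 change of 2.23 ± 0.28 (adjusted p = 0.000818). WRKY48 (AT5G49520) differed by 1.94 between the OE sets and by 1.92 ± 0.20 in Col-0 (adjusted p = 0.000287). WRKY30 (AT5G24110) was under the 40th percentile on all 3 control-like arrays, so its difference is at least 1.27-fold; in Col-0 it rose by 2.13 ± 0.53 (adjusted p = 0.0363). WRKY40 (AT1G80840) overlapped through the array labelled OE 1h wound B, with 2843, 1842 and 3057 on the 1 h-like and 511, 241 and 1873 on the control-like arrays, and rose by 1.75 ± 0.18 in Col-0 (adjusted p = 0.000313). WRKY70, the member that fell in Col-0 (-1.36 ± 0.26, adjusted p = 0.00904), overlapped, with 701 to 1714 on the 1 h-like and 642 to 2756 on the control-like arrays. The array labelled OE 6h wound B was the highest of the 6 for 14 of 18 WRKY genes, against 16.2% of all kept probe sets.

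Other early factors split the control-like set. Of 9 C1-2i zinc finger genes, a class of stress-responsive factors that includes the ZAT genes, 4 rose in Col-0 and 2 were higher without overlap between the OE sets, a share near the 14.2% of all kept probe sets. AT3G53600 had 222, 209 and 283 on the 1 h-like arrays and lay under the 40th percentile on the control-like ones, at least 3.02-fold apart, with a Col-0 change of 2.13 ± 0.35 (limma adjusted p = 0.00435). STZ (AT1G27730), a repressor in stress responses also called ZAT10, had 2366, 1854 and 2460 on the 1 h-like and 1151, 445 and 3949 on the control-like arrays. The array labelled OE 1h wound B was above all 3 of the 1 h-like set, while OE 1h wound A was lowest. RHL41 (AT5G59820) overlapped as well, with 952 on the array labelled OE 1h wound B beside 893 on 6h wound A. ZAT11 (AT2G37430) was at least 3.05-fold higher at 1 h in Col-0 (adjusted p = 0.00236), but was under the 40th percentile on all 6 OE arrays and is not resolved there.

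Of 21 ERF and CBF factors, 5 rose in Col-0 and 9 were higher without overlap between the OE sets. RRTF1 (AT4G34410) had 1019, 745 and 830 on the 1 h-like and 185, 59.7 and 644 on the control-like arrays, a difference of 2.16, beside 2.15 ± 0.27 in Col-0 (limma adjusted p = 0.000894). CEJ1 (AT3G50260) had 514, 664 and 423 on the 1 h-like and 126, 62.4 and 112 on the control-like arrays, and rose by 1.90 ± 0.19 in Col-0 (adjusted p = 0.000287). ERF4 (AT3G15210), a transcriptional repressor, differed by 1.17, beside 1.13 ± 0.22 in Col-0 (adjusted p = 0.0123). ERF11 (AT1G28370) overlapped, at 1187, 1096 and 1191 on the 1 h-like and 572, 222 and 1884 on the control-like arrays, though it rose by 1.08 ± 0.21 in Col-0 (adjusted p = 0.0104). The array labelled OE 1h wound B was the highest of the 6 for 11 of the 21 genes and OE 1h wound A the lowest for 19. Over all kept probe sets, OE 1h wound B was highest for 20.2% and OE 1h wound A lowest for 2277 of 14823. Among the 105 probe sets that rose in Col-0 and overlapped between the OE sets, OE 1h wound A was lowest for 76. Of the same 105, OE 6h wound B was highest for 55 and OE 1h wound B for 39. Over all kept probe sets, OE 6h wound B was highest for 16.2%. The 105 were picked because the sets overlap, so their ranks follow in part from that choice. These ranks were counted after the values were seen.

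Of 21 touch and calcium genes, 9 rose in Col-0 and 8 were higher without overlap between the OE sets, and the medians were 0.68 and 0.73. AT3G01830 had 1828, 1483 and 3134 on the 1 h-like and 165, 89.7 and 448 on the control-like arrays, a difference of 3.44, beside 2.32 ± 0.18 in Col-0 (limma adjusted p = 5.6e-05). CML38 (AT1G76650), a calmodulin-like protein gene, differed by 1.5, with 1.68 ± 0.18 in Col-0 (adjusted p = 0.000412), and CML37 (AT5G42380) by 1.56, with 1.89 ± 0.29 (adjusted p = 0.00297). BAP1 (AT3G61190), a membrane-associated defence regulator, had 597, 578 and 750 on the 1 h-like and 247, 85.6 and 722 on the control-like arrays. The sets overlapped through the array labelled OE 1h wound B, and in Col-0 BAP1 rose by 1.77 ± 0.23 (adjusted p = 0.001).

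Among 13 MAP kinase, phosphatase and U-box ligase genes, 4 rose in Col-0 and 7 were higher and 1 lower between the OE sets. MAPKKK14 (AT2G30040) had 2113, 1663 and 2289 on the 1 h-like and 855, 571 and 1102 on the control-like arrays, and changed by 1.37 ± 0.22 in Col-0 (limma adjusted p = 0.00388). PUB22 (AT3G52450), a ubiquitin ligase that dampens immune signalling, had 145, 322 and 516 on the 1 h-like and 107, 4.94 and 169 on the control-like arrays and overlapped, beside 2.28 ± 0.31 in Col-0 (adjusted p = 0.00138). PUB23 (AT2G35930), a close relative, overlapped, with a Col-0 change of 1.57 ± 0.22 (adjusted p = 0.00149), and so did AT2G30020, with 1.3 in Col-0.

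**Figure D4:**
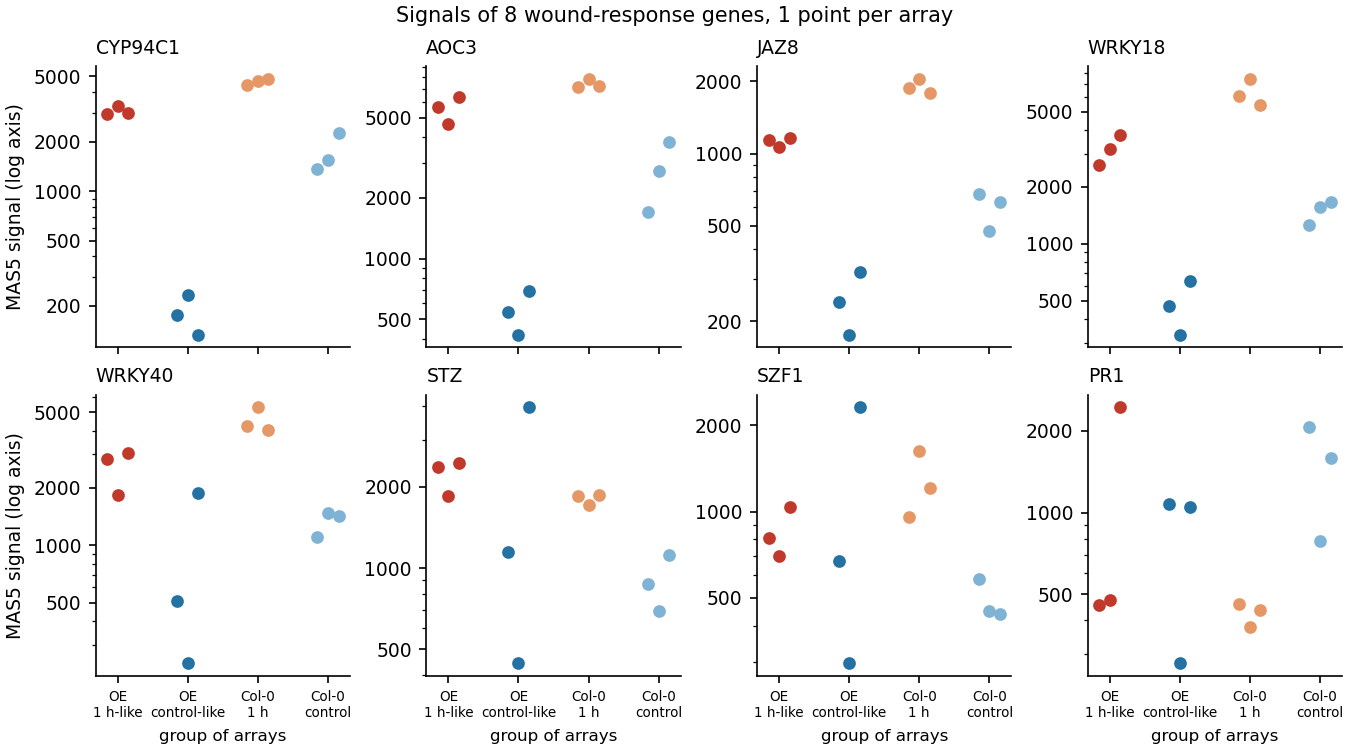
MAS5 signals on a log axis for 8 genes, with 1 point per array for the OE 1 h-like and control-like sets, Col-0 1 h and Col-0 control. For CYP94C1, AOC3, JAZ8 and WRKY18 the OE sets do not overlap, while for WRKY40, STZ and SZF1 the array labelled OE 1h wound B is the highest control-like point, and for PR1 the sets overlap.

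Of 10 abscisic acid genes, 1 rose in Col-0 while 8 were higher without overlap between the OE sets, with medians of 1.73 in OE and 0.29 in Col-0. Over all kept probe sets, 3.64% rose in Col-0 and 14.2% were higher without overlap. NCED3 (AT3G14440), the rate-limiting enzyme of abscisic acid synthesis, had 557, 241 and 426 on the 1 h-like and 73.0, 95.7 and 174 on the control-like arrays, beside 1.89 ± 0.29 in Col-0 (limma adjusted p = 0.00297). HAI1 (AT5G59220), a phosphatase of the abscisic acid pathway, had 1560, 1199 and 1147 on the 1 h-like and 265, 215 and 160 on the control-like arrays. In Col-0 it averaged 923 ± 217 at 1 h and 1012 ± 502 in controls (SD, n = 3 each; log2 change 0.00 ± 0.34, adjusted p = 0.999). Of 6 ethylene genes, ACS2, ACS6 and ACS8 rose in Col-0, ACS2 by at least 1.92-fold. ACS8 (AT4G37770), an ACC synthase, was at least 2.45-fold higher on the 1 h-like arrays, and ACS6 overlapped, with 1039, 1029 and 1277 on the 1 h-like and 1120, 483 and 2982 on the control-like arrays. Of 8 auxin genes, IAA2 and IAA6 rose in Col-0, and 5 were higher without overlap between the OE sets.

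Of 10 salicylic acid genes, 3 fell and 1 rose in Col-0, with a median of -0.51, while the OE median was 0.59 and 2 were higher without overlap, near the 14.2% of all kept probe sets. PR1 (AT2G14610), a marker of salicylic acid defence, had 455, 475 and 2443 on the 1 h-like and 1071, 279 and 1048 on the control-like arrays, and fell by 1.70 ± 0.39 on the log2 scale in Col-0 (limma adjusted p = 0.0259). PR5 and EDS16, which fell in Col-0 with adjusted p = 0.0308 and adjusted p = 0.0276, overlapped between the OE sets. GRX480 (AT1G28480), the member that rose, had 1393, 1090 and 1280 on the 1 h-like and 252, 237 and 375 on the control-like arrays. Whether the OE and Col-0 differences themselves differ was not tested.

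Of 10 phenylpropanoid and flavonoid genes none was called in Col-0, and 5 were higher without overlap between the OE sets, with medians of 0.49 and -0.44. PAL1, at the entry of the pathway, had 4009, 3266 and 3036 on the 1 h-like and 1645, 1847 and 1236 on the control-like arrays. Of 7 indolic glucosinolate genes none was called in Col-0 and 3 were higher without overlap, MYB34 by 1.19. Of 6 heat shock genes HSP17.4 rose in Col-0, by at least 1.35-fold, and overlapped between the OE sets. Of 12 photosynthesis genes none was called in Col-0 and 4 were lower without overlap, beside 26.5% of all kept probe sets, with an OE median of -0.12 beside -0.11 over all kept probe sets.

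Of 13 clock genes, 7 were higher and 1 lower without overlap between the OE sets, with medians of 0.34 in OE and -0.03 in Col-0. LHY, a morning clock factor, had 4953, 4647 and 3758 on the 1 h-like and 2786, 3212 and 2952 on the control-like arrays, but 362, 367 and 403 on the OE arrays in neither set and 353 to 604 in Col-0 6 h. GRP7, a clock-controlled RNA-binding protein gene, had 691, 593 and 638 on the 1 h-like and 738, 474 and 644 on the control-like arrays. It reached 19808 to 20744 on the OE arrays in neither set and 7246 to 11470 in Col-0 6 h, while Col-0 controls averaged 708 ± 200 (SD, n = 3). Both genes set the 6 arrays apart from the OE arrays in neither set. The 1 clock call in Col-0, PCL1, came from a probe set shared between genes that was under the 40th percentile on the 6 OE arrays and on the Col-0 1 h and control arrays, so no size is given. The hour at which leaves were taken is not given in the labels.

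The leaf markers overlapped between the sets. RCA, the Rubisco activase of green cells, had 34494, 39955 and 28464 on the 1 h-like and 28980, 33880 and 33221 on the control-like arrays, and the 4 mesophyll markers differed by -0.06 to 0.09. The 3 phloem markers differed by -0.10 to 0.17 and overlapped. Of 3 guard cell markers, KAT1 was lower without overlap, at 376, 412 and 366 on the 1 h-like and 567, 490 and 657 on the control-like arrays. The root list had 1 kept marker of 2 on the array and the flower list 1 of 4, at signals of 48.0 to 82.4 for PHT1;4 and 40.7 to 115 for AG over the 6 arrays. AG, a floral organ factor, was lower without overlap on the 1 h-like arrays at these signals near the 40th percentile. The other kept guard cell markers overlapped. The part of cell makeup in the differences was not tested.

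The highest differences between the OE sets, among probe sets of 1 gene with no overlap, began with PP2-A5 (AT1G65390), a gene of the phloem lectin family. It had 596, 1045 and 1096 on the 1 h-like and 11.2, 5.87 and 127 on the control-like arrays, where 2 of 3 lay under the 40th percentile. AT1G22810 followed, with 216, 304 and 492 on the 1 h-like arrays and all control-like arrays under the 40th percentile, at least 4.08-fold apart. AT2G22880 had 2770, 2260 and 2373 on the 1 h-like and 141, 93.6 and 213 on the control-like arrays, and MYB74 (AT4G05100) had 1629, 1097 and 1210 on the 1 h-like and 80.1, 115 and 79.9 on the control-like arrays. GA2OX6 (AT1G02400), which inactivates gibberellins, had 1597, 2353 and 2828 on the 1 h-like and 227, 119 and 275 on the control-like arrays. The other highest genes were CYP94C1, CYP94B1, AT5G06570, AT5G52020 and AT1G51820. Of the 10, all but AT5G52020 (limma adjusted p = 0.186) were called higher in Col-0, by 0.94 to 2.85 on the log2 scale. Of all 727 probe sets at least 2-fold higher between the OE sets, 44.6% were called higher in Col-0. Such agreement is in part built in by the choice of arrays.

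At the low end of the same probe sets stood LTP4, LTP3, GA20OX1, AT2G05160, EXPA8, TRM22, AT3G62550, PGL1, AT5G05890 and AT3G63210. EXPA8 (AT2G40610), an expansin that loosens cell walls, had 399, 205 and 258 on the 1 h-like and 1614, 1629 and 1679 on the control-like arrays. In Col-0 it had 208 ± 15.8 at 1 h and 539 ± 542 in controls (SD, n = 3 each; adjusted p = 0.39 in limma), with a control spread as large as its mean. LTP3 (AT5G59320), a lipid transfer protein gene, was at least 3.49-fold lower on the 1 h-like arrays. GA20OX1, an enzyme of gibberellin synthesis, was under the 40th percentile on all 1 h-like arrays and on 2 control-like ones. PGL1 was under it on every array of both sets, so the size of its difference is not resolved. AT3G62550, with 158, 250 and 191 on the 1 h-like and 1405, 897 and 1191 on the control-like arrays, and AT3G63210, with 67.2, 67.8 and 78.0 on the 1 h-like and 435, 298 and 485 on the control-like arrays, were the 2 of these 10 called in Col-0, both lower. In Col-0, AT3G62550 changed by -1.15 ± 0.20 (limma adjusted p = 0.00553). AT3G63210 was at least 1.81-fold lower at 1 h in Col-0 (adjusted p = 0.00843). Of all 322 probe sets at least 2-fold lower between the OE sets, 22.7% were called lower in Col-0.

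Among called probe sets of 1 gene, 8 of the 10 highest Col-0 changes were higher without overlap between the OE sets, and of the 10 lowest 6 were lower. Over all called probe sets, these shares were 80.6% of the risen and 78.5% of the fallen ones. XTH18 (AT4G30280), a cell wall xyloglucan enzyme, rose by 2.38 ± 0.17 in Col-0 (limma adjusted p = 3.56e-05) and had 680, 630 and 1083 on the 1 h-like and 60.1, 86.0 and 80.1 on the control-like arrays. CBL1 (AT4G17615), a calcium sensor, rose by 2.33 ± 0.23 (adjusted p = 0.000248) and had 1210, 1098 and 1549 on the 1 h-like and 338, 257 and 497 on the control-like arrays. B120 (AT4G21390), a receptor-like kinase gene, rose by 2.5 ± 0.19 (adjusted p = 5.6e-05) and was at least 2.97-fold higher on the 1 h-like arrays. The 2 that overlapped were ZAT11 and LSH1. LSH1 was under the 40th percentile on all Col-0 controls, and its Col-0 rise had a lower bound of 1.0-fold. AT1G53540 and SAUR21 were also among the highest, both under the 40th percentile on all Col-0 controls. Among the lowest, PIL5 (AT2G20180), a phytochrome-interacting factor, had 106, 77.5 and 87.7 on the 1 h-like and 239, 312 and 262 on the control-like arrays, with -1.75 ± 0.37 in Col-0 (adjusted p = 0.0166). AT1G19960 had 432, 239 and 488 on the 1 h-like and 1315, 1039 and 1635 on the control-like arrays, with -1.83 ± 0.34 in Col-0 (adjusted p = 0.00851). The other lowest were AT4G10500, BOP2, AT5G40020, AT4G04630, AT3G63210, AT5G49170, PR1 and AT2G45600. BOP2 and AT4G04630 were under the 40th percentile on all Col-0 1 h and control arrays, so their Col-0 changes are not resolved in size. AT5G40020 and AT5G49170 were at least 1.18-fold and 1.03-fold lower at 1 h in Col-0.

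A few genes moved in 1 comparison and not in the other. Of 346 genes called in Col-0 at 2-fold or more, 12 had an OE difference of the other sign or under 0.25 in size on the log2 scale. SZF1 (AT3G55980), a CCCH zinc finger gene, rose by 1.34 ± 0.19 in Col-0 (limma adjusted p = 0.00191) and had 806, 698 and 1041 on the 1 h-like and 671, 297 and 2307 on the control-like arrays. DIC2 (AT4G24570), a mitochondrial carrier gene, rose by 1.66 ± 0.21 (adjusted p = 0.000894) and had 882, 1035 and 1258 on the 1 h-like and 919, 353 and 2657 on the control-like arrays. In both, the array labelled OE 1h wound B was highest and OE 1h wound A lowest. AT1G21010 rose by 1.1 ± 0.16 (adjusted p = 0.00218) and had 604, 810 and 839 on the 1 h-like and 790, 710 and 841 on the control-like arrays, with little scatter. AT5G47610 fell by 1.34 ± 0.13 (adjusted p = 0.000248) and had 360, 236 and 279 on the 1 h-like and 309, 329 and 330 on the control-like arrays. LSH1, AT4G10500, AT5G40020, PR1, EXL3 and AT3G27270 were the others of the 10 named. The Col-0 changes of LSH1 and AT5G40020 had lower bounds of only 1.0-fold and 1.18-fold.

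The reverse held for 23 of 448 genes with no overlap and an OE difference of at least 1.5 in size, whose Col-0 change was under 0.25 in size. MYB47 (AT1G18710) had 2584, 1751 and 1197 on the 1 h-like and 456, 468 and 339 on the control-like arrays, and in Col-0 1462 ± 299 at 1 h and 1374 ± 243 in controls (SD, n = 3 each). TPS04 (AT1G61120), the geranyllinalool synthase of the leaf's volatile defence, had 4587, 3175 and 3305 on the 1 h-like and 1146, 860 and 913 on the control-like arrays, and in Col-0 1887 ± 718 at 1 h and 1817 ± 140 in controls. RLP23 (AT2G32680), a receptor-like protein, had 811, 566 and 1051 on the 1 h-like and 258, 156 and 217 on the control-like arrays, with 1205 ± 28.5 at 1 h and 1122 ± 178 in controls of Col-0. For each of these the control-like arrays lay under the Col-0 control mean. GSTU11, HAI1, AT2G05160, AT5G18470, BT2, AT3G45730 and MDHAR were the others of the 10 named. GSTU11 was under the 40th percentile on every array of both OE sets, so its difference is not resolved. As lower bounds, the OE differences of AT2G05160, BT2 and AT3G45730 were 1.56-fold, 1.45-fold and 1.81-fold.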

How the data were processed

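Leaf RNA on 18 ATH1 arrays was analysed, 3 in each of 6 labelled groups. The authors deposited signal intensity on a linear scale, made with MAS5 per the submitters' processing notes, version not stated, and, from the values, every array has a trimmed mean of 500 after its extreme 2% are dropped. A further 90 columns, 5 per array, were not used here. Signals were taken to log2, and 14823 of 22746 probe sets, controls aside, passed a filter that asks 3 of the 18 arrays to lie at or above their own 40th percentile. A fold is given as a lower bound from that percentile where all 3 arrays of a set were under it.

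Labelled contrasts were fitted with limma 3.58.1 in R 4.3.3, over the 9 arrays of a genotype, with a variance trend, two-sided, Benjamini-Hochberg adjusted over all kept probe sets, called under 0.05. The array sets, gene lists (24, 253 members) and rules were chosen with earlier results of these data known. The second family of actin, GAPDH and ubiquitin ratios was added after the first had been seen, and both are given. Named were up to 4 members per list called in Col-0 with the largest change; the 10 highest and 10 lowest OE differences without overlap; the 10 highest and 10 lowest Col-0 calls of 2-fold or more without overlap; up to 10 Col-0 calls of 2-fold or more whose OE difference had the other sign or was under 0.25 on the log2 scale; and up to 10 genes without overlap, at 1.5 or more in OE and under 0.25 in Col-0. All but the list members were taken from probe sets of 1 gene, so probe sets shared between genes, such as that of PCL1, enter no ranking. For genes with more than 1 probe set the brightest on average stands, and further list members were named after their values were seen. Symbols come from the deposited annotation and RefSeq's gene table, 22310 probe sets matched. Alternatives were quantile or median scaling, an offset of 16, no filter or the 60th percentile, no trend, all 18 arrays, the letter as a block, and each array left out. Array ranks were counted after values were seen. Same-letter arrays did not deviate together (r -0.076 to 0.084), so the letter is a block in an alternative only. The number of arrays limits precision. Models were tested on simulated data; figures used matplotlib 3.10.9.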

Additional observations from a re-analysis of the deposited data

How the results depend on the processing

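The count of Col-0 1 h calls, 866, was 4 in the fit of all 18 arrays, 812 with the replicate block, and 604 to 923 under the other settings of normalization, offset, filter and variance trend. With 1 array left out it ran from 376 (without Col-0 1 h array B) to 1196 (without Col-0 control array C), and was 496 without Col-0 1 h array C. The labelled OE contrast gave 0 calls in every setting run, the replicate block included. Probe sets at least 2-fold higher between the OE sets numbered 593 to 989 across normalization, offset and filter, and 698 to 834 with 1 array left out. Those at least 2-fold lower numbered 705 with no filter, 209 with the filter at the 60th percentile and 239 to 274 under the scalings and the offset, and 338 to 391 with 1 array left out. The share of risen probe sets higher in the 1 h-like arrays was 95.4% to 98.5% with 1 array left out, and that of fallen ones lower was 97.0% with array medians subtracted and 94.5% to 95.7% with 1 array left out. The causes were not tested. Among single genes, small OE differences could change sign with 1 array left out. That of PR1, 0.25, rested on 2443 on the array labelled OE 6h wound B, beside 455 and 475 on the other 1 h-like arrays. Those of SZF1 and DIC2, 0.12 and 0.14, turned negative without the array labelled OE 1h wound A. In pairs of a gene and a setting, the OE difference moved by more than the spread between arrays in 22 and by less in 2381. For the Col-0 change, the outcome was the same in 3395 pairs, a call was lost in 247, and 41 were stronger. Signals near the 40th percentile limit the size of differences in dim genes.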
